A study of Mus musculus with 4 samples.

Results

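The 10 genes described here encode long noncoding RNAs (lncRNAs), transcripts that are not translated into a known protein: Malat1 and Neat1, which are retained in the nucleus; Meg3, H19 and Kcnq1ot1, which are expressed from 1 parental allele; Gas5, Snhg1, Snhg3 and Snhg12, whose introns hold small nucleolar RNAs (snoRNAs); and Mir17hg, the host of the miR-17-92 microRNAs. They were chosen by gene symbol, and each has a row in the deposited table of gene counts, so they make up 10 of 27179 rows. The cells were mAEC, a line of murine aortic endothelial cells. The control group was kept in normal medium, and the conditioned medium group received supernatant from macrophages described as TNFα+CD68+. Each group had 2 biological replicates, so the p-values measure the spread between these cultures of 1 line. The labels used here state neither a dose nor a time of exposure. The control is plain medium, so an effect of TNFα, of any other macrophage product and of medium in which cells had grown cannot be told apart.

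Malat1 is a long nuclear RNA found in nuclear speckles, bodies rich in splicing factors, and Neat1 is the RNA on which paraspeckles, another kind of nuclear body, are assembled. In Gas5 and the Snhg genes the spliced exons are the by-product of snoRNA synthesis, and several of these spliced RNAs are short-lived because ribosomes engage them and nonsense-mediated decay removes them. Meg3, H19 and Kcnq1ot1 are controlled by parent-of-origin methylation, and Mir17hg is transcribed under MYC and E2F control in dividing cells. In endothelium, Malat1, Meg3, H19 and the miR-17-92 cluster have each been studied for effects on growth and vessel formation.

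The ends of Malat1 and Neat1 are shown because they bear on what a library selected on poly(A) can hold. The 3′ ends of Malat1 and of the long form of Neat1 are made by RNase P cleavage rather than by polyadenylation, and a triple helix between U-rich motifs and an A-rich tract protects them. The short form of Neat1 ends with an ordinary poly(A) tail. The sequences are from GENCODE M21 on build GRCm38, minus strand, in DNA letters. They are the 100 bases before the tRNA-like mascRNA of Malat1 (chr19:5795982-5796081), the last 100 bases of the long form of Neat1 (chr19:5824708-5824807) and the last 100 bases of its short form (chr19:5842307-5842406). In the first pair, capitals mark TTTCTTTT, TTTTGCTTTT and AAAAAGCAAAA with any adjoining T or A of the same run, and in the short form they mark the polyadenylation signal AATAAA.
Malat1, before mascRNA: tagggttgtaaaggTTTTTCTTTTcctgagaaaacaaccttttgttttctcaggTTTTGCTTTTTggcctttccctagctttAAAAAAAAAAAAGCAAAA
Neat1, long form: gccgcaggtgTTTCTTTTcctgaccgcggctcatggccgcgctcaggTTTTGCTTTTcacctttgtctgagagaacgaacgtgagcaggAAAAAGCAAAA
Neat1, short form: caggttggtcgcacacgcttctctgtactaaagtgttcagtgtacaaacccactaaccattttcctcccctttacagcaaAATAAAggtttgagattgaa
Searched on the transcript strand only, TTTCTTTT is in 1.16% of the last 100 bases of 139316 annotated transcripts, TTTTGCTTTT in 0.084%, AAAAAGCAAAA in 0.0459% and AATAAA in 28.9%. The first 3 strings were read from the long form of Neat1, so that end was bound to hold them. It is the 1 annotated transcript end that holds all 3. The Malat1 window lies before mascRNA and is not an annotated end. In both windows the A-rich tract is the last element, and 29 of the 100 bases are A in Malat1 and 22 in the long form of Neat1.

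For the snoRNA hosts the start is shown, because many host genes of this kind belong to the class with a 5′ terminal oligopyrimidine (TOP) tract. This is a run of C and T at the first transcribed base that ties translation to growth signals. Each window holds 70 bases around a RefSeq start on GRCm38.p6, and capitals mark the longest unbroken run of C or T that reaches within 3 bases of that start, searched on the transcript strand. The windows are chr1:161035136-161035205 for the second annotated start of Gas5, chr4:132308648-132308717 for Snhg12, chr19:8723457-8723526 for Snhg1 and, on the minus strand, chr4:132353647-132353716 for Snhg3.
Gas5: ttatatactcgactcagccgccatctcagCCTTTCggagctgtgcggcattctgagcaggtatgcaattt
Snhg12: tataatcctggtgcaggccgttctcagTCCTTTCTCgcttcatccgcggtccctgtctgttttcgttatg
Snhg1: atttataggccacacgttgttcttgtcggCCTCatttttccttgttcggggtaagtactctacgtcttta
Snhg3: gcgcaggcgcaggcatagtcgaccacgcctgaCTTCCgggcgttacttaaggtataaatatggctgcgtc
The runs are 6 bases in Gas5, 9 in Snhg12, 4 in Snhg1 and 5 in Snhg3. In Snhg3 the run begins after the annotated start, so the annotated first base lies outside it. The first annotated start of Gas5, not shown, has a run of 3 bases, a length reached in 51.7% of windows. Among 32851 such windows, a run at least as long is present in 15.7% for Gas5, 5.37% for Snhg12, 36.1% for Snhg1 and 24.2% for Snhg3. Of these 4 the Snhg12 run is the least common at this position, and the match describes letters at annotated starts.

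For Mir17hg the mature microRNAs are shown, because the gene's product is the microRNA and not the spliced RNA that was counted. Capitals mark the seed, bases 2 to 8, which pairs with target mRNAs. The sequences are from RefSeq on GRCm38.p6, chromosome 14, plus strand.
miR-17-5p: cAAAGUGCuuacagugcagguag
miR-20a-5p: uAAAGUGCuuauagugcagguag
miR-18a-5p: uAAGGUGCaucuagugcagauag
miR-19a-3p: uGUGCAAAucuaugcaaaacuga
miR-19b-3p: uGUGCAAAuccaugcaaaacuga
miR-92a-3p: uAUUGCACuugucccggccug
miR-17-5p and miR-20a-5p share the seed AAAGUGC, and miR-19a-3p and miR-19b-3p share GUGCAAA. The seeds of miR-18a-5p (AAGGUGC) and miR-92a-3p (AUUGCAC) are each their own. RefSeq starts the Mir17hg gene at chr14:115044390, which leaves only miR-92a-1 inside it, whereas the GENCODE gene starts at chr14:115042879 and contains the whole cluster. Which of these models was counted is not stated in the labels or notes used here.

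Library totals ranged from 13815695 to 18005840 counts. The 2 libraries of a group differed by a median absolute log2 ratio of 0.081 in control and 0.062 in conditioned medium over 10662 genes. Values below are counts and CPM, that is, counts per 1000000 of a TMM-scaled library total. A gene was called when edgeR's quasi-likelihood test gave a Benjamini-Hochberg adjusted p under 0.05 over the 13897 genes with enough counts. The endothelial label held: 11 of 12 endothelial markers were tested, with Pecam1 at 2414 CPM in control, their summed level was 7311 and 7315 CPM in control and 7507 and 7590 CPM in conditioned medium, and 3 of the 11 were called higher and 2 lower. Cldn5 was the endothelial marker near 0, and Vwf was low, at 2.90 CPM in control and 2.88 in conditioned medium. Of 12 macrophage markers 9 were under 1 CPM in every library, Adgre1, Mrc1, C1qa, C1qb and Tyrobp were at 0, and none of the 3 tested was called. The macrophage list summed to 230.3 to 260.2 CPM, nearly all from Cd68 (234.0 CPM in control and 244.8 in conditioned medium). The smooth muscle list summed to 228.6 to 244.0 CPM, nearly all from Smtn, and none of its 3 tested genes was called. The fibroblast list summed to 27.7 and 29.8 CPM in control and 34.0 and 34.2 in conditioned medium. Nearly all of it was Pdgfra, which was called higher (26.2 to 31.8 CPM). The epithelial list rose from 7.45 and 8.49 CPM to 14.1 and 13.8 CPM in sum, with Krt19 called. The part of these lists in the results below was not tested.

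All 10 lncRNAs had at least 1 count somewhere, and 8 passed the count filter. Of these 8, Neat1 alone was called, as higher. That is 12.5% of the 8, against 16.8% of all 13897 genes called in either direction, 8.53% called higher and 8.23% called lower. None was called lower with edgeR, 4 of the 8 had an unadjusted p under 0.05 (Malat1, Neat1, Gas5 and Mir17hg) against 4105 of the 13897, and limma-voom called 1 lower (Malat1) and DESeq2 none. Their median log2 fold change, conditioned medium over control, was -0.10, against 0.00 over all genes tested. In 5 of the 8, both CPM values of 1 group lay above both of the other, a separation that 57.2% of all tested genes showed.

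**Figure D1:**
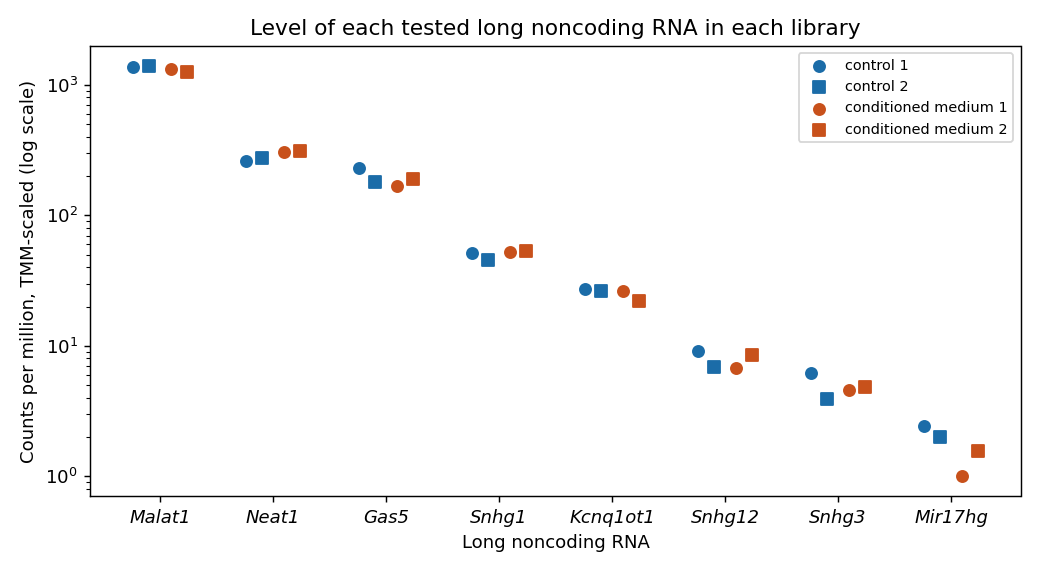
CPM of the 8 tested lncRNAs in each library on a log axis, controls in blue, conditioned medium in orange, replicate 1 as circles and replicate 2 as squares. Malat1 lies between 1248 and 1383 CPM and Mir17hg between 1.01 and 2.44 CPM, and for each RNA the points of both colours lie close together beside the distance between RNAs. Meg3 and H19, with 0 to 2 counts per library, are not drawn.

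Among 2077 rows that RefSeq types as lncRNA, 862 had no count in any library and 541 were tested. Together the lncRNA rows held 0.714% to 0.740% of each library's counts. Malat1 ranked first among them by total count with 18.2% of all lncRNA counts, and it ranked 45 among all rows. Neat1 ranked second with 3.97%, Gas5 ranked 8, Snhg1 18 and Kcnq1ot1 41. Snhg12, Snhg3 and Mir17hg ranked 133, 209 and 361. H19 and Meg3, at ranks 858 and 972, were not abundant in these cells.

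Levels between genes were compared per kilobase of annotated exon (GENCODE M21). By this length Malat1 stood highest at a mean of 190.7 CPM per kb over the 4 libraries, above 98.5% of the 12787 tested genes with a length. Gas5 followed at 51.3 CPM per kb, and then Snhg1 at 17.0 and Neat1 at 13.9. Every Snhg1 value (15.4 to 17.9 CPM per kb) lay above every Neat1 value. Snhg3 ranged from 3.96 to 6.25 CPM per kb and Snhg12 from 2.82 to 3.78, so these neighbours in the order were separate as well. Their order rests on the length used, the joined exons of all annotated transcripts: 986 bases for Snhg3 and 2402 for Snhg12. Joined exons took up about the whole RefSeq span of Snhg12 (2347 bases), Snhg1 and Gas5 (3760 bases against 3939), but not that of Snhg3 (1754). A shorter spliced length would place Gas5 and Snhg1 higher, so the lead of Malat1 over Gas5 holds for this length only. Before division by length Snhg12 was the higher, at a mean of 7.96 CPM in control against 5.03 for Snhg3. Mir17hg (0.494 CPM per kb) and Kcnq1ot1 (0.274) were lowest of the tested RNAs, and their ranges (0.286 to 0.689 and 0.236 to 0.290) overlapped. The place of Neat1 in this order depends on the form assumed. Divided by the 20771 bases of the long form it was at 13.9 CPM per kb. Divided by the 3004 bases of the short form it would be at 96.1, second to Malat1 with the other lengths kept. Gene counts do not separate the forms.

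Neat1 was higher after conditioned medium. It had 3827 and 4038 counts in control 1 and 2 and 4267 and 5621 in conditioned medium 1 and 2. On the CPM scale these were 259.2, 276.3, 307.9 and 311.5. Both conditioned medium libraries lay above both controls. The mean rose from 268 ± 12.1 to 309.7 ± 2.60 CPM (SD, n = 2). This was 15.7%, or 0.21 ± 0.045 (SE) on the log2 scale, with an adjusted p of 0.00247 (edgeR quasi-likelihood test, Benjamini-Hochberg). The change exceeded the log2 ratio between replicates, 0.09 in control and 0.02 in conditioned medium. Without conditioned medium 1 the log2 fold change was 0.22, and without conditioned medium 2 it was 0.20. The call needed both of these libraries. Without control 1 the log2 fold change was 0.16, and without control 2 it was 0.26, so the size varied more with the control used.

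Malat1, the neighbour of Neat1 at a distance of 22036 bp on chromosome 19, was not called. Its counts were 20367 and 20214 in control and 18248 and 22511 in conditioned medium. As CPM they were 1379, 1383, 1317 and 1248. Both conditioned medium libraries lay below both controls by a small margin. The log2 fold change was -0.11 ± 0.043 with a 95% interval from -0.20 to -0.02 and an adjusted p of 0.0918 (edgeR), and limma-voom gave -0.11 with an adjusted p of 0.0407. Leaving out control 1 or control 2 gave -0.11 and -0.11 with adjusted p-values of 0.00197 and 0.00257. Leaving out conditioned medium 1 gave -0.15 (adjusted p 0.307), and leaving out conditioned medium 2 gave -0.07 (adjusted p 0.672).

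The ratio of Neat1 to Malat1 counts within a library does not depend on library scaling. It was 0.188 in control 1, 0.200 in control 2, 0.234 in conditioned medium 1 and 0.250 in conditioned medium 2. Both conditioned medium ratios were above both control ratios. Frmd8, a partner of iRhom proteins that lies next to Neat1, was at a log2 fold change of 0.14 and was not called, with an edgeR adjusted p of 0.162.

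**Figure D2:**
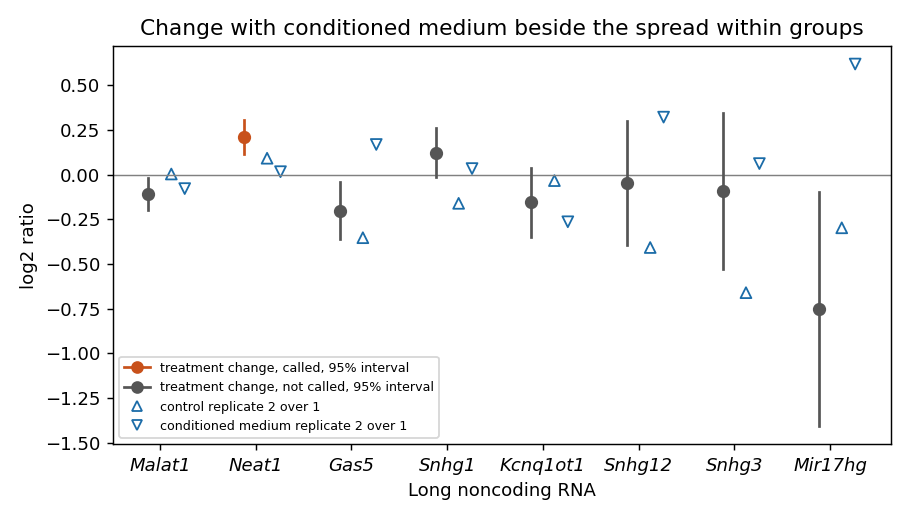
Filled points give the log2 fold change of each tested lncRNA, conditioned medium over control, with its 95% interval, in orange where called and grey where not. Open triangles give the log2 ratio of replicate 2 over replicate 1 within each group. Neat1 is the 1 called RNA, at 0.21, while in Gas5, Snhg1, Snhg3 and Snhg12 the size of the ratio within control is larger than that of the treatment change.

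Among tested genes averaging 20 CPM or more, the 1 whose profile over the 4 libraries was nearest to that of Neat1 was Egfl7, an endothelial secreted protein and the host of miR-126. The distance was 0.0066 on the log2 scale among 7243 candidates. Egfl7 had 299.9 and 318.8 CPM in control and 356.5 and 358.7 in conditioned medium. Its log2 fold change was 0.21 with an edgeR adjusted p of 0.00226. With 4 libraries many profiles are alike, and the match is a description.

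Proteins that assemble paraspeckles with Neat1 were called in 1 direction only: of 18 tested, 0 were called higher and 6 lower. That is 33.3%, against 16.8% of all genes, and their median log2 fold change was -0.07. Neither this share nor those of the lists below were matched with all genes for counts. Hnrnpm, a splicing regulator, had 113.1 and 110.7 CPM in control and 98.1 and 93.8 in conditioned medium, a log2 fold change of -0.22 with an edgeR adjusted p of 0.00383. Cpsf6, a subunit of the cleavage factor that selects polyadenylation sites, went from 106.8 and 112.7 CPM to 97.3 and 91.2, a log2 fold change of -0.22 with an adjusted p of 0.00593. In both genes every conditioned medium library lay below every control. Sfpq, Hnrnpk, Tardbp and Smarca4 were the other 4 called. DESeq2 called 0 of the 18 lower, and edgeR called 2 without conditioned medium 1 and 0 without conditioned medium 2.

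Splicing factors and other proteins of nuclear speckles, where Malat1 resides, gave 0 higher and 5 lower of 16 tested, 31.2% against 16.8% of all genes, with a median log2 fold change of -0.13. Srsf2, a serine and arginine rich splicing factor of speckles, was at 114.0 and 112.1 CPM in control and 100.6 and 82.7 in conditioned medium, a log2 fold change of -0.31 with an edgeR adjusted p of 0.00256. Srsf1, which binds Malat1, was at 199.1 and 201.5 CPM and then 168.6 and 165.3, a log2 fold change of -0.26 with an adjusted p of 0.000291. The 2 groups did not overlap in either gene. Srsf5, Srsf11 and Pnn were the other 3 called. Without conditioned medium 1 edgeR called 2 of the 16 lower and without conditioned medium 2 it called 0, and DESeq2 called 3. Srsf2 was at -0.17 without conditioned medium 2.

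Gas5, the host of a large set of box C/D snoRNAs and an RNA that accumulates when growth stops, was not called. It had 3421 and 2652 counts in control and 2341 and 3427 in conditioned medium. In CPM these were 231.7, 181.5, 168.9 and 189.9. The groups overlapped, since conditioned medium 2 lay above control 2. The log2 fold change was -0.20 ± 0.076 with an adjusted p of 0.0767 (edgeR), and the controls alone differed by a log2 ratio of -0.35. With control 1 left out it was -0.01 with an adjusted p of 0.914, and with control 2 left out it was -0.36 with an adjusted p of 1.63e-14, so the value turned on which control was used.

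Snhg1, whose introns hold several C/D snoRNAs, had 753 and 667 counts in control and 720 and 960 in conditioned medium. In CPM it was at 51.0, 45.6, 51.9 and 53.2. Conditioned medium lay above control, by less than 1 CPM against control 1. The log2 fold change was 0.12 ± 0.066 with an edgeR adjusted p of 0.225, without control 1 it was 0.21 with an adjusted p of 0.0395, and without control 2 it was 0.05 with an adjusted p of 0.728. Its divergent neighbour Slc3a2, the heavy chain of amino acid transporters, starts 118 bp away and was at 0.06, not called, with an adjusted p of 0.411.

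Snhg12 and Snhg3 lie close together on chromosome 4 and were low. Snhg12 had 134 and 100 counts in control and 94 and 153 in conditioned medium, or 9.07, 6.84, 6.78 and 8.48 CPM. Snhg3, host of the H/ACA snoRNAs of the Snora73 family, had 91 and 57 counts in control and 64 and 87 in conditioned medium, or 6.16, 3.90, 4.62 and 4.82 CPM. The groups overlapped in both. The log2 fold change was -0.05 ± 0.17 for Snhg12, with an edgeR adjusted p of 0.889. For Snhg3 it was -0.09 ± 0.21, with an adjusted p of 0.820. The 95% intervals, from -0.39 to 0.30 and from -0.53 to 0.34, leave room for a change in either direction. Without control 1 the log2 fold changes were 0.17 and 0.28.

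All 4 hosts were lower in control 2 than in control 1 and higher in conditioned medium 2 than in conditioned medium 1. Their median log2 ratio was -0.38 within control and 0.12 within conditioned medium, while over all tested genes these medians were 0.00 and 0.00. Rows of the snoRNAs themselves held few counts beside Gas5 and Snhg1. Snord22, inside Snhg1, had 63 to 88 counts per library, Snord47, inside Gas5, had 8 to 15 and Snora73b, inside Snhg3, had 10 to 14, and none of the 3 was called. Reads of these rows may come from the host transcript. The kit does not mark strand, so reads of Gas5 and of the overlapping Zbtb37 cannot be told apart by strand either. Reads of overlapping rows may have been counted in both. Zbtb37 was at a log2 fold change of -0.04 and was not called.

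Of 13 other tested snoRNA hosts without a protein product, 2 were called higher and 0 lower, with a median log2 fold change of 0.09. That is 15.4% called, against 16.8% of all genes. Snhg7 had 59 and 55 counts in control and 87 and 113 in conditioned medium, a log2 fold change of 0.69 ± 0.18 with an edgeR adjusted p of 0.0111. Zfas1, a host of C/D snoRNAs, went from 44.9 and 39.6 CPM to 51.5 and 56.8, a log2 fold change of 0.36 ± 0.072 with an adjusted p of 0.00129. Both genes had their conditioned medium libraries above both controls, and the 11 others were not called. DESeq2 gave Snhg7 an adjusted p of 0.165, and leaving out conditioned medium 1 or 2 gave 0.0913 and 0.130. Zfas1 had an adjusted p of 0.127 without conditioned medium 2.

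Protein-coding hosts moved both ways: of 16 tested, 2 were called higher and 4 lower, with a median of 0.04. The share called was 37.5%, against 16.8% of all genes. Ncl, the nucleolar protein nucleolin, was at 505.8 and 433.4 CPM in control and 388.5 and 379.3 in conditioned medium, a log2 fold change of -0.29 with an edgeR adjusted p of 0.000794. Without conditioned medium 1 and 2 its adjusted p was 0.0503 and 0.113, and without control 1 its log2 fold change was -0.18. Hspa8, a chaperone, and Rack1, a ribosome-bound scaffold, were the 2 higher. Of 13 proteins that form the snoRNA particles, 0 were called higher and 2 lower (15.4%, all genes 16.8%), with a median of -0.12. Nop58, a core C/D protein, fell from 65.1 and 61.7 CPM to 48.1 and 47.5, a log2 fold change of -0.41 ± 0.060 with an adjusted p of 7.06e-05. Nop56, also a core C/D protein and itself a host, was at -0.24 with an adjusted p of 0.00622, which became 0.102 in DESeq2, 0.113 without conditioned medium 1 and 0.106 without conditioned medium 2.

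Factors of nonsense-mediated decay gave 1 higher and 2 lower of 19 tested, with a median log2 fold change of -0.08. The share called was 15.8%, against 16.8% of all genes. Dhx34, a helicase that promotes decay, was higher by 0.53 ± 0.13 (8.53 and 8.49 CPM in control, 11.1 and 13.2 in conditioned medium) with an edgeR adjusted p of 0.00896. Rbm8a, part of the exon junction complex, was at -0.29 with an adjusted p of 0.00488. Without conditioned medium 2 the adjusted p-values were 0.248 and 0.180, and in DESeq2 they were 0.136 and 0.0771. A list of mRNAs of the TOP class was drawn mostly from outside the ribosomal proteins, and their start sequences were not examined here. Of 20 tested, 3 were called higher and 2 lower (25%, against 16.8% of all genes), with a median of -0.03. Fau, which encodes a ribosomal protein fused to a ubiquitin-like domain, was at 0.20 with an adjusted p of 0.0356. In this list 18 of the 20 were lower in control 2 than in control 1. Without control 2, Fau was at 0.07 and was not called (adjusted p of 0.267), and 10 of the 20 were then called lower. The call of Fau was also lost in DESeq2 (adjusted p 0.592), with a robust spread (0.368), with no count filter (0.0845) and without conditioned medium 1 (0.144) or 2 (0.447).

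**Figure D3:**
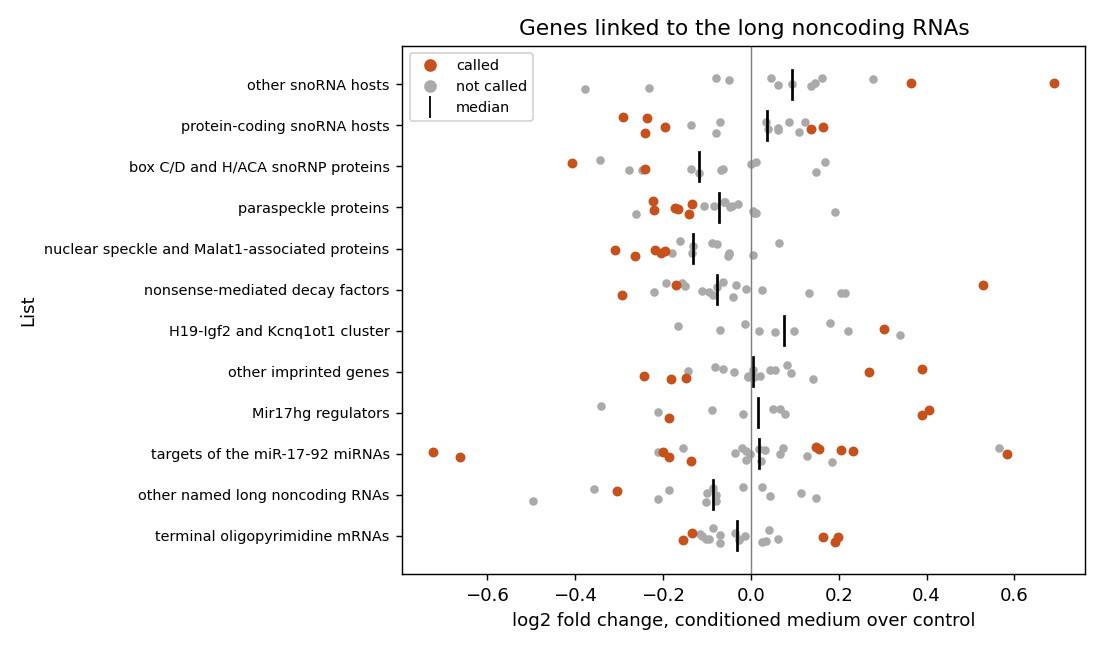
Log2 fold change of each tested gene in the lists linked to the lncRNAs, conditioned medium over control, with called genes in orange, others in grey and a black bar at each list's median. The paraspeckle and speckle lists hold 6 and 5 called genes, all to the left of 0, while the other snoRNA hosts hold 2, both to the right. Points are spread vertically for legibility only.

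Meg3 and H19, which are highly expressed in the embryo and placenta, were at or below the detection floor. Meg3 had 0 and 1 counts in control and 1 and 0 in conditioned medium. H19 had 1 and 1 counts in control and 1 and 2 in conditioned medium. A count of 0 allows up to 3 counts, or 0.166 to 0.216 CPM depending on the library, and this floor covers counting error only. No fold change was computed for either, and no difference was detectable at this depth. In bulk RNA such as this, fewer cells with an RNA and less RNA per cell cannot be told apart.

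The neighbours of Meg3 were near 0 as well: of 6 genes of the Dlk1-Meg3 cluster, 3 were at 0 in every library, the others had 1 count in 1 library each, and 0 were tested. In the H19, Igf2 and Kcnq1ot1 region 10 of 15 genes were tested, with 1 called higher and 0 called lower. That is 10% called, against 16.8% of all genes, and the median log2 fold change was 0.08. Igf2, the growth factor that shares enhancers with H19, had 17 and 14 counts in control and 13 and 17 in conditioned medium. Tnfrsf23, a decoy receptor of the TNF receptor family, was the 1 called, at 106.4 and 102.4 CPM in control and 127.8 and 129.6 in conditioned medium, a log2 fold change of 0.30 ± 0.049 with an edgeR adjusted p of 0.00018.

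Kcnq1ot1, the antisense RNA that silences its neighbours on the paternal allele, had 399 and 386 counts in control and 366 and 397 in conditioned medium. In CPM it was at 27.0, 26.4, 26.4 and 22. Control 2 and conditioned medium 1 were level to 3 digits, and conditioned medium 2 alone was lower. The log2 fold change was -0.15 ± 0.092 with an edgeR adjusted p of 0.283, without conditioned medium 1 it was -0.28, and without conditioned medium 2 it was -0.02. The sense gene Kcnq1, a potassium channel, had 269 and 260 counts in control and 296 and 373 in conditioned medium, a log2 fold change of 0.22 with an adjusted p of 0.118. The ratio of Kcnq1ot1 to Kcnq1 counts was 1.48 in both controls and 1.24 and 1.06 in conditioned medium. The 2 genes overlap on opposite strands and the kit does not mark strand, so which of them gave the reads in the overlap cannot be told apart. Such reads may have been counted in both rows.

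Cdkn1c, the cell cycle inhibitor that Kcnq1ot1 silences in the embryo, had 21 and 10 counts in control and 14 and 21 in conditioned medium and was not called (log2 fold change 0.05, edgeR adjusted p 0.949). Of 19 other imprinted genes tested, 2 were called higher and 3 lower (26.3%, against 16.8% of all genes), with a median of 0.00. Snrpn and Snurf, both among the 19 and not called, had the same counts in every library, so they are not 2 separate measurements. Igf2r, the receptor that clears IGF2, was at 61.8 and 69.2 CPM in control and 84.7 and 86.7 in conditioned medium, a log2 fold change of 0.39 with an adjusted p of 9.27e-05. Blcap was at 0.27 with an adjusted p of 0.032, which was 0.312 in DESeq2, 0.0953 without control 1, 0.201 without conditioned medium 1 and 0.195 without conditioned medium 2.

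Mir17hg had the fewest counts of the tested RNAs and the largest fold change among them. It had 36 and 29 counts in control and 14 and 28 in conditioned medium. In CPM these were 2.44, 1.98, 1.01 and 1.55. Both conditioned medium libraries were below both controls, but the conditioned medium pair differed by a log2 ratio of 0.62. The log2 fold change was -0.75 ± 0.31, with a 95% interval from -1.41 to -0.09, an unadjusted p of 0.0271 and an edgeR adjusted p of 0.112, so it was not called. Over the alternatives it ran from -1.12 to -0.51, with adjusted p-values of 0.0806 to 0.505. Rows of the microRNA hairpins held 0 to 2 counts per library for Mir92-1, 0 or 1 for Mir19b-1 and 0 or 1 for Mir20a, so the mature microRNAs printed above were not measured.

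Among 10 regulators of Mir17hg, 2 were called higher and 1 lower (30%, against 16.8% of all genes). Myc, which activates the host gene, was not called (log2 fold change -0.02, edgeR adjusted p 0.878), and neither was Mycn (-0.34, adjusted p 0.0835). Mxd1 and Mxi1, which compete with MYC for its partner MAX, were higher by 0.41 and 0.39 with adjusted p-values of 0.0377 and 0.00176. Without conditioned medium 1 and 2 these were 0.269 and 0.146 for Mxd1 and 0.0559 and 0.0676 for Mxi1, and for Mxd1 it was 0.158 without control 1 and 0.303 in DESeq2. Without control 2 Mxi1 was at 0.25. Ccnd1, cyclin D1, was the 1 lower.

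Of 25 genes known as targets of the miR-17-92 seeds, 5 were called higher and 5 lower, with a median log2 fold change of 0.02. The share called was 40%, against 16.8% of all genes. Ccn2, a matricellular growth factor, was at 367.9 and 381.1 CPM in control and 225.3 and 228.5 in conditioned medium, a log2 fold change of -0.72 ± 0.043 with an edgeR adjusted p of 8.26e-10. Thbs1, the angiogenesis inhibitor thrombospondin 1, was at 972.6 and 997.3 CPM and then 634.6 and 610.6, a log2 fold change of -0.66 ± 0.042 with an adjusted p of 2.06e-09. Both fell in both conditioned medium libraries. Vegfa, Hif1a, Klf2, Itga5 and Cdkn1a were the 5 called higher. Without conditioned medium 1 or without conditioned medium 2, 1 of the 25 was called higher and 2 lower.

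**Figure D4:**
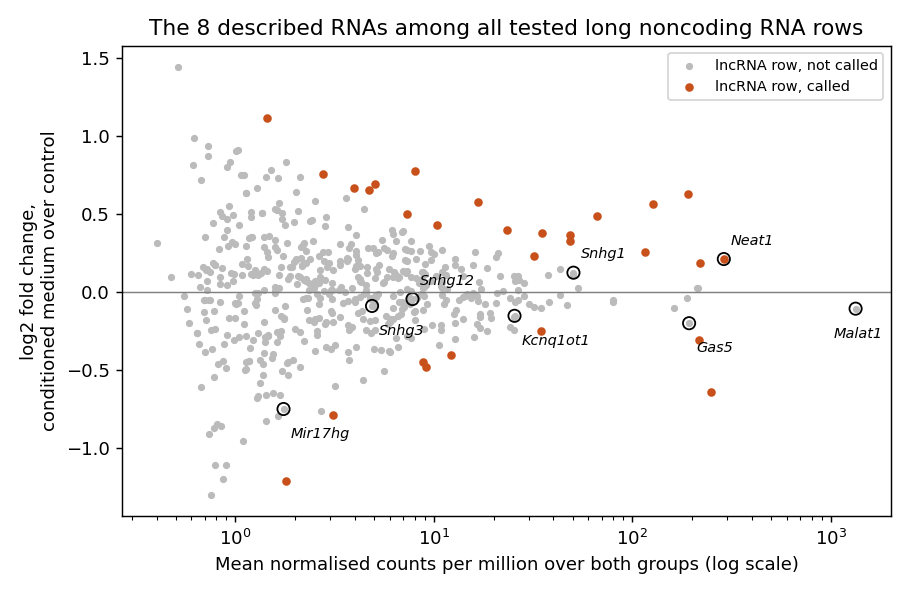
Log2 fold change, conditioned medium over control, against mean CPM (log axis) for the 541 tested lncRNA rows, with called rows in orange and the 8 tested lncRNAs of this account circled. Called rows are 20 above and 8 below 0, and 7 of the circled points are grey.

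Over all 541 tested lncRNA rows, 20 were called higher and 8 lower, with a median log2 fold change of 0.02. These calls are 5.18% of the rows, against 16.8% of all genes. The 2 shares were not matched for counts, so they do not compare lncRNAs with other genes of equal counts. Of the 20 lncRNA rows with the most counts, 7 were called higher and 2 lower. Among 15 other named lncRNAs tested, 0 were called higher and 1 lower (6.67%, against 16.8% of all genes). That was Xist, the RNA that coats the inactive X chromosome, at 223.9 and 256.4 CPM in control and 195.3 and 193.3 in conditioned medium, a log2 fold change of -0.31 with an edgeR adjusted p of 0.000399 that became 0.0684 without conditioned medium 2. Norad and Tug1, which ranked 7 and 11 among lncRNA rows by total count, were not called (log2 fold changes of 0.02 and -0.10). Outside the 10 lncRNAs the largest called change in an lncRNA row with at least 5 CPM was in Gm4610, from 6.03 and 5.82 CPM to 9.23 and 10.9, a log2 fold change of 0.78 ± 0.15 with an adjusted p of 0.00111. Without conditioned medium 2 it was 0.64 with an adjusted p of 0.0906.

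**Figure D5:**
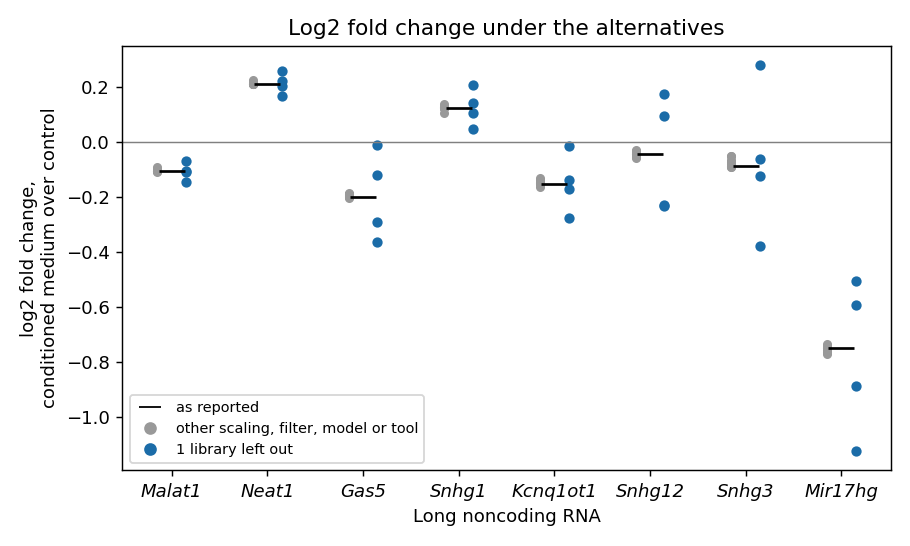
Log2 fold change of each tested lncRNA as reported (black bar), under other scalings, filters, models and tools (grey) and with 1 library left out (blue). The grey points lie close to the bar, and the blue points cross 0 for Snhg3 and Snhg12 and come within 0.02 of 0 for Gas5 and Kcnq1ot1.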

How the data were processed

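Total RNA of the 4 cultures went into libraries made with the TruSeq RNA kit, version 2, per the labels. As sold, this kit selects poly(A) RNA and does not mark strand, and the labels do not say whether poly(A) selection was done. The authors deposited raw counts per gene. Per the submitters' processing notes the build was mm10, and the tools listed are Subread 1.4.6-p1, featureCounts and STAR 2.5.2b, with settings, annotation and the handling of shared reads not given in the sources used here. Entrez identifiers were matched to RefSeq genes on GRCm38.p6 (25275 of 27179 rows). The 1904 unmatched rows, with 6.31% of the counts, stayed in the fit.

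Counts were tested with edgeR 4.0.16 in R 4.3.3: filterByExpr (minimum count 10, total 15), TMM, quasi-likelihood test, two-sided, no replicate block, 13897 genes. CPM and SDs are from 2 libraries a group. Library totals of 13815695 to 18005840 counts set the floor of 3 counts. The procedure was tested on simulated counts. Alternatives were other scalings, filters, a robust spread, a replicate block, DESeq2 1.42.0, limma-voom (limma 3.58.1), each library left out and thinned counts. The effect of thinning on the numbers of called genes was added after the data were seen.

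The members and gene lists were chosen with earlier results of these data known. Named are all members, their tested neighbours where a result touches them, the gene nearest in profile to a called member (at least 20 CPM), and in each list the 2 called genes with the largest absolute change and at least 5 CPM. Igf2, Kcnq1, Cdkn1c, Myc, Mycn, Norad, Tug1 and the other called genes listed without values were named after their values were seen. Some genes that meet this rule are not reported here.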

Additional observations from a re-analysis of the deposited data

How the results depend on the processing

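Of 112 recomputed log2 fold changes of the 8 tested lncRNAs, 101 kept their direction and side of the threshold, 6 became called, 2 lost a call (Neat1 without conditioned medium 1 or 2) and 3 reversed. The reversals were Snhg3 (0.28) and Snhg12 (0.17) without control replicate 1 and Snhg12 (0.09) without conditioned medium replicate 1; with 1 library left out Snhg3 ran from -0.38 to 0.28 and Snhg12 from -0.23 to 0.17. With 1 library left out, the lncRNAs called higher numbered 0 to 2 and those called lower 0 to 2, the lone library being taken to vary as the other group does. Limma-voom called 1 lower (Malat1). The replicate numbers are not said to pair the cultures, and same-numbered deviations correlated at -0.04 over 10662 genes. A replicate block gave 2671 genes called and 1 lncRNA lower (Gas5, adjusted p 0.00175). Over all genes 2330 were called, 904 by DESeq2 and 569 to 3107 with 1 library left out. Of other named genes' log2 fold changes, 264 kept their call and 44 lost it, and none reversed. Meg3 and H19 could not be tested at this depth, thinning to the smallest library moved Mir17hg from -0.75 to -0.77, and the causes of the other shifts were not tested.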

Other observations

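The calls among other abundant lncRNAs went both ways. Over all tested lncRNA rows 5.18% were called by edgeR, and over all tested genes 16.8%. Of the 20 lncRNA rows with the most counts, 7 were called higher and 2 lower by edgeR, Neat1 and Xist among them. The 2 rows with the largest changes, named after their values were seen, were Gm15441 and Gm16548. Gm15441 had 4580 and 4293 counts in control and 2750 and 3400 in conditioned medium, a log2 fold change of -0.64 ± 0.046 with an adjusted p of 8.21e-09. It spans Txnip on chromosome 3, an inhibitor of thioredoxin, which was at -0.66 with an edgeR adjusted p of 4.23e-08. Reads of the shared stretch cannot be told apart without strand. They may have been counted in both rows, so the 2 changes may not be separate. Gm16548 had 2115 and 2268 counts in control and 3174 and 4165 in conditioned medium, a log2 fold change of 0.62 ± 0.048 with an adjusted p of 1.95e-08. In both rows the groups did not overlap.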
